A study of Mus musculus with 12 samples.

Results

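Blood and colon of the same 3 mice with dextran sulfate sodium (DSS) colitis were compared for mature microRNAs (miRNAs) by small RNA sequencing. The comparison used 6 of the 12 libraries of the series, blood and colon of mice 1, 7 and 9, paired by the mouse number in the library titles, and all 1978 miRNA rows of the count table. The mice were C57BL/6, and colitis was induced with 1.5% DSS in the drinking water over 7 days, with sacrifice on day 8. The other 6 libraries, blood and colon of control mice 2, 4 and 8 kept on plain water for the same time, served to ask which tissue contrasts held, narrowed or widened in colitis, and shared the filter, the scaling and the estimate of the spread with the DSS libraries. With the 6 DSS libraries alone 617 entries were tested and 517 called, against the 680 and 555 given below. RNA from blood and RNA from colon were extracted with different kits, so tissue and extraction cannot be told apart. DSS injures the colon lining chemically and gives an acute model, and whole blood and whole colon wall are mixtures of cells, in which fewer cells of a type and less miRNA per cell cannot be told apart.

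The sources disagreed on the groups. The study's heatmaps name mice 1, 7 and 9 as DSS and mice 2, 4 and 8 as control, which was followed here. The disease state in the sample labels instead marks mice 1, 2 and 4 as colitis and mice 7, 8 and 9 as control, so only mice 1 and 8 carry the same condition in both. For every library the source name also gives the other tissue than the tissue field and the titles. The titles were followed, and the red cell miRNAs described below held 77.0% to 81.4% of the counts in the DSS libraries titled blood and 0.302% to 0.503% in those titled colon. Between tissues 562 entries were called in the colitis mice of the labels' grouping and 555 in the DSS mice of the heatmaps, of which 536 were shared, and some contrasts near 0 changed sign. The difference between DSS and control mice rested on the grouping, and each such difference is a statement about mice 1, 7 and 9 against mice 2, 4 and 8.

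The miRNA counts of a library came to between 15060553 and 20106226 in colon and between 21127134 and 32944792 in blood. The entries miR-486b-5p and miR-486a-5p have one and the same mature sequence, and a read of it can be counted for both. They took 76.1% to 80.5% of the counts of DSS blood, which left 4356396 to 7165946 counts for all other miRNAs. Of the 1978 rows, 1337 had a count in the 6 DSS libraries, and 680 passed a filter on low counts and were tested. Levels below are CPM, counts per 1000000 counts of a library size corrected by TMM factors, a scaling that assumes most miRNAs to be alike between libraries. Contrasts are log2 fold changes of blood over colon within mouse from edgeR's quasi-likelihood test, with the standard error (SE), so that positive values mean blood and negative values mean colon. A contrast was called where p, adjusted by the Benjamini-Hochberg method, did not exceed 0.05 and the fold exceeded 1.5. The scale between such different tissues is not fixed by the data. The median contrast over the 680 entries was -0.76 with TMM factors, -0.84 with DESeq2-type size factors, 0.38 with upper-quartile factors and -1.64 with total counts alone, and every value below is relative to the TMM scale.

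miRNAs are short RNAs that guide Argonaute proteins to messenger RNAs, chiefly by pairing of the seed, and thereby lower their translation and stability. Each is cut from a hairpin whose arms give the 5p and the 3p product, of which one usually dominates. Many are made mainly in one lineage: miR-451a, miR-144 and miR-486 in red cell precursors, miR-223 and miR-142 in white cells, miR-192, miR-194, miR-215 and the miR-200 family in epithelium, and miR-143 and miR-145 in smooth muscle. Red cells lose their nucleus and keep their small RNAs, so whole blood is rich in them.

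The sequences shown are those on which the tissue contrast turned within a family, since miRNAs with one seed can share target messages but were divided between blood and colon, followed by the dominant miRNA of blood and a pair of colon epithelium. All are 5′ to 3′ from the deposited tables, with the seed (bases 2 to 8) in capitals.
miR-25-3p: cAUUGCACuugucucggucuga
miR-92a-3p: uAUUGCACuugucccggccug
miR-363-3p: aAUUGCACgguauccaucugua
miR-92b-3p: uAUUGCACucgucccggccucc
miR-32-5p: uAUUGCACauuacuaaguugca
miR-15b-5p: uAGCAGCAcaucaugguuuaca
miR-15a-5p: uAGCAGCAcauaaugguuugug
miR-16-5p: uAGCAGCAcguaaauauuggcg
miR-195a-5p: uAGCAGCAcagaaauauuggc
miR-497a-5p: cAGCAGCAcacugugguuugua
miR-322-5p: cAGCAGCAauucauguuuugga
miR-148b-3p: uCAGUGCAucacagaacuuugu
miR-148a-3p: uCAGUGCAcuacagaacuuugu
miR-152-3p: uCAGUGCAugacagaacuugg
miR-486a-5p and miR-486b-5p: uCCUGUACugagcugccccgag
miR-192-5p: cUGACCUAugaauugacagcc
miR-215-5p: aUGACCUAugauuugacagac

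Blood and colon of the DSS mice differed in most of the tested miRNAs. With edgeR's test 555 of 680 entries were called (81.6%), 235 of them higher in blood (34.6%) and 320 higher in colon (47.1%). Among the 610 entries with a count in both tissues of the DSS mice, 115 called entries were at least 10-fold higher in blood and 175 at least 10-fold higher in colon, and at least 100-fold contrasts numbered 12 and 74. The levels of the 3 blood and the 3 colon libraries did not overlap in 568 entries (83.5%). With upper-quartile factors 303 entries were higher in blood and 272 higher in colon, which turns the balance of the directions, while 187 entries were higher in blood and 272 higher in colon under all 4 scalings. No count was found in any DSS blood library for 64 tested entries, and none in any DSS colon library for 6. Such entries passed the filter through other libraries than these.

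**Figure D1:**
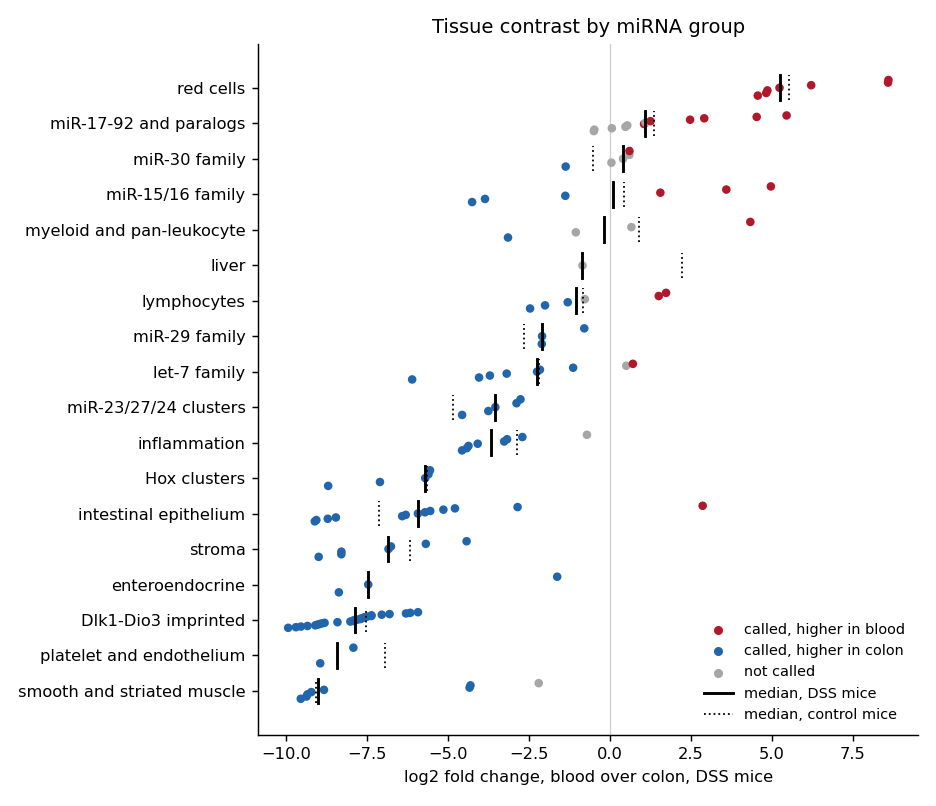
Log2 fold change of blood over colon in the DSS mice for the members of 18 miRNA groups, 1 point for each tested miRNA. Bold lines are the group medians in DSS mice and dotted lines those in control mice, and the red cell group lies farthest to the side of blood with a median of 5.23. Fitted values of 8 Dlk1-Dio3 members without a count in DSS blood are not measured folds.

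The red cell miRNAs made up most of the miRNA counts of DSS blood. Reads of the sequence shared by miR-486a-5p and miR-486b-5p can be counted for both entries, so the share below can count a read more than once. All 7 listed entries were higher in blood, where 34.6% of all entries were, with a median contrast of 5.23 beside -0.76 over all tested entries, and they held 79.6 ± 2.28% of the counts in DSS blood (SD, n = 3) against 0.434 ± 0.114% in DSS colon. miR-486b-5p stood at 486719, 669559 and 447037 CPM in the blood of mice 1, 7 and 9 and at 1137, 1679.9 and 1313 CPM in their colon. All blood libraries lay far above all colon libraries, and the contrast was 8.60 ± 0.29 (adjusted p = 4.3e-13), the largest toward blood among entries with at least 100 CPM in the higher tissue. miR-451a, which is cut by Argonaute2 without Dicer, measured 9838, 15206 and 8806 CPM in blood and 178, 378 and 369.8 CPM in colon, a contrast of 5.23 ± 0.35 (adjusted p = 1.22e-09). miR-144-5p, from the same transcript as miR-451a, was uneven in blood at 1300.4, 69.2 and 97.6 CPM, with mouse 1 far above the others, against 2.32 to 3.02 CPM in colon.

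Outside the red cell group, the most abundant miRNAs of DSS blood were of several kinds. miR-25-3p, from the Mcm7 transcript, measured 40706, 39741 and 33707 CPM in blood and 820.2 to 895 CPM in the colon samples, a contrast of 5.45 ± 0.28 (adjusted p = 1.15e-10). miR-140-3p, miR-423-5p and miR-191-5p were also higher in blood, with contrasts of 4.91 ± 0.31, 4.14 ± 0.30 and 2.15 ± 0.30. miR-296-5p was scarcer but almost confined to blood, at 352, 319 and 231 CPM against 2.54 to 3.45 CPM in colon, a contrast of 6.71 ± 0.46 (adjusted p = 1.59e-09). miR-3074-5p, encoded antisense to a miR-24 hairpin, followed with 92.5 to 153 CPM in blood against 1.32 to 2.43 CPM in colon. These directions were the same under all 4 scalings.

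Of the miR-17-92 cluster and its paralogs, proliferation-linked miRNAs encoded in 3 transcripts, 12 of 13 listed entries were tested, 6 were higher in blood, where 34.6% of all entries were, and none was higher in colon, with a median of 1.07. The count depended on the scale, with 4 higher in blood and 2 higher in colon for total counts alone and 10 higher in blood with a median of 2.21 for upper-quartile factors. The contrast was uneven along the cluster: miR-92a-3p was 4.53 ± 0.28 and miR-17-5p 1.05 ± 0.34, whereas miR-20a-5p (-0.50 ± 0.41, adjusted p = 0.262) was not called.

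White cell miRNAs did not share one direction. Of the 4 myeloid and pan-leukocyte entries, 1 was higher in blood, 1 higher in colon and 2 were not called, beside 34.6% and 47.1% of all entries. Upper-quartile factors gave 2 higher in blood and 1 higher in colon (median 0.95), and total counts alone gave 1 and 2 (median -1.13). miR-142a-5p, made in all white cells, measured 8996, 6999 and 6374 CPM in blood against 213, 332 and 699.8 CPM in colon, a contrast of 4.33 ± 0.45 (adjusted p = 1.95e-07). miR-223-3p, the granulocyte miRNA, measured 63.6, 31.2 and 26.2 CPM in blood and 14.3, 20.9 and 43.8 CPM in colon, so that the tissues overlapped (0.66 ± 0.51, adjusted p = 0.237). Its partner arm miR-223-5p was higher in colon, at 33.8, 35.4 and 50.1 CPM against 8.75, 4.41 and 2.04 CPM in blood. Among 6 lymphocyte entries, both arms of miR-150 were higher in blood, with 1.50 ± 0.48 for miR-150-5p, but neither was called with total counts alone or without mouse 1 (0.59 and 0.76 for miR-150-5p). The entries miR-181a-5p, miR-181b-5p and miR-342-5p were higher in colon.

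The muscle miRNAs had the lowest median contrast of the 18 groups. miR-143-3p, the dominant miRNA of the colon wall, measured 259923, 267436 and 192295 CPM in DSS colon and 421, 268 and 277 CPM in blood, a contrast of -9.56 ± 0.38 (adjusted p = 5.52e-12). Of 8 listed entries 7 were higher in colon, where 47.1% of all entries were, with a median of -9.04, and the group held 34.4 ± 2.23% of DSS colon counts against 0.0278 ± 0.00686% of DSS blood counts. The exception was miR-206-3p, a skeletal muscle miRNA, which lay at 0.335, 47.4 and 2.25 CPM in blood, against 13.3 to 16.1 CPM for colon, and was not called. Only the blood of mouse 7 exceeded the colon there. With DESeq2, total counts alone, the 6 DSS libraries alone or without mouse 7, miR-206-3p was also called and all 8 entries were higher in colon.

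Epithelial miRNAs were also weighted to colon. Of 13 listed entries 12 were higher in colon and 1 higher in blood, against 47.1% and 34.6% of all entries, with a median of -5.94. miR-215-5p measured 18835, 10523 and 6937 CPM in DSS colon against 21.4 to 40.6 CPM in blood (-8.47 ± 0.37, adjusted p = 1.56e-11). miR-192-5p has the same seed and a smaller contrast, -5.15 ± 0.28, at 37672, 22591 and 17627 CPM in colon and 591 to 868 CPM in blood. Within the miR-200 family, guardians of the epithelial state through Zeb1 and Zeb2, miR-200b-3p stood at -8.72 ± 0.45 and miR-200c-3p, which measured 559 to 800.3 CPM in blood, at -2.86 ± 0.33. miR-31-5p, an epithelial injury miRNA, was the entry on the blood side, at 4.97 to 12.4 CPM against 0.539 to 1.36 CPM in colon (2.86 ± 0.57).

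All 7 stromal entries, all 5 entries of the Hox clusters, all 3 enteroendocrine entries, both arms of the endothelial miR-126a and all 5 entries of the miR-23/27/24 clusters were higher in colon, where 47.1% of all entries were. With upper-quartile factors 2 of the 3 enteroendocrine entries were called. The medians of the groups, in this order, were -6.85, -5.71, -7.47, -8.44 and -3.55. The Hox miRNA miR-10a-5p was uneven among the DSS colons, at 50964, 29639 and 9935 CPM for mice 1, 7 and 9, against 349 to 728 CPM in blood. miR-375-3p, a miRNA of enteroendocrine cells, showed the same order of the mice, at 10817, 6053 and 2082 CPM in colon and 12.1 to 19.6 CPM in blood.

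The imprinted Dlk1-Dio3 domain is a run of maternally expressed miRNA hairpins. Of 29 listed miRNAs 26 were tested and all of these were called higher in colon, beside 47.1% of all entries. Of the 26, 8 had no count in DSS blood and passed the filter through other libraries, so that nothing is read from the count against that share. The other 18 had contrasts from -9.71 to -5.94, and the median of the 26 was -7.87, or -7.21 with those without a count at their bound. The lists were drawn up with results of these data known, and such counts describe their members alone. By position, all 17 tested entries of the cluster at chr12:109563710-109595387, all 3 at chr12:109611556-109618326 and all 41 at chr12:109709065-109743784 (GRCm38, plus strand) were called higher in colon. Of these, 7, 2 and 16 had no count in DSS blood, so that they passed the filter through other libraries, their direction was set by it, and nothing is read from these counts against the share of all entries. miR-379-5p, the first miRNA of the longest of them, measured 578, 469 and 394 CPM in DSS colon and 1.00, 0.843 and 0.105 CPM in DSS blood (-9.71 ± 0.59, adjusted p = 4.71e-10). miR-136-3p had no count in DSS blood and 11.1, 14.7 and 16.5 CPM in colon, which is at least 98-fold lower in blood when 3 counts per library are taken as the floor.

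Of 36 clusters on the GRCm38 map, 10 had called members that were all higher in blood and 20 had called members that were all higher in colon. Some of these clusters, such as those on chr12, hold entries without a count in a tissue of the DSS mice. The direction of such entries was set by the filter, so nothing is read from these counts of clusters against the share of all entries. All 6 entries of Mir106b, Mir93 and Mir25 at chr5:138165332-138165807, within Mcm7, were higher in blood, where 34.6% of all entries were, from 2.47 to 5.45. All 3 entries of Mir144 and Mir451a at chr11:78073010-78073207 were also higher in blood. The 5 entries of Mir200a, Mir200b and Mir429 at chr4:156053916-156055742 were all higher in colon, where 47.1% of all entries were, from -9.13 to -8.51. Called members of both directions were found in 4 clusters, among them the X-linked one of Mir322, Mir351, Mir450-1, Mir450b, Mir503 and Mir542 at chrX:53048008-53054327, with 2 entries higher in blood and 5 higher in colon.

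Inflammation-linked miRNAs were weighted to colon. Of 8 listed entries 7 were higher in colon, where 47.1% of all entries were, and 1 was not called, with a median of -3.68. miR-21a-5p measured 42837, 35729 and 57427 CPM in DSS colon and 3640.2, 1947 and 1364 CPM in blood (-4.38 ± 0.36, adjusted p = 1.33e-08). miR-146b-5p was at -4.43 ± 0.36, and miR-212-5p, from the activity-dependent miR-132/212 cluster, at -4.58 ± 0.43. The group held 6.97 ± 2.87% of DSS colon counts and 0.189 ± 0.101% of DSS blood counts.

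**Figure D2:**
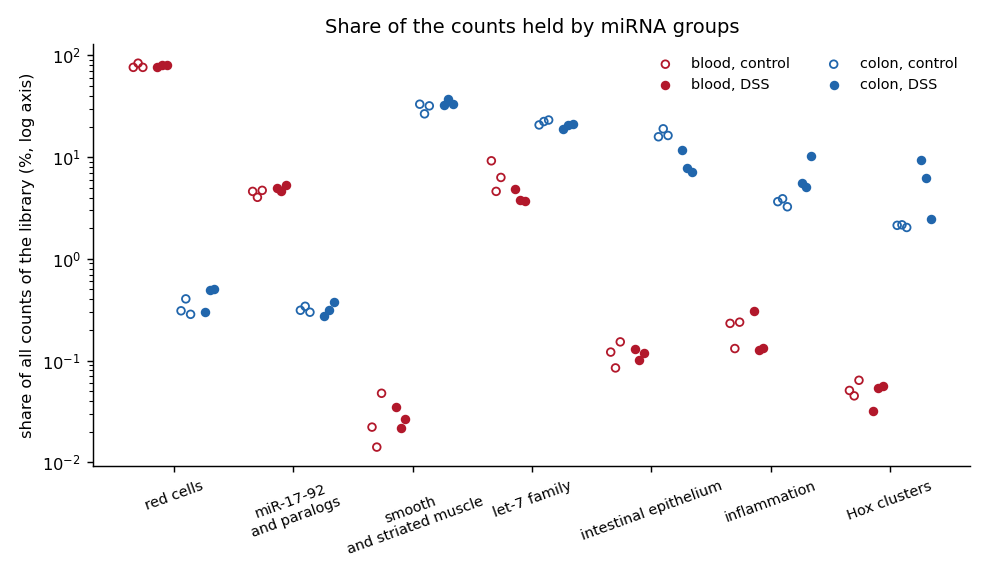
Share of all miRNA counts of a library (percent, log axis) taken by 7 miRNA groups, 1 point for each of the 12 libraries. The epithelial share of the 3 DSS colons, 7.14% to 11.7%, lies below that of the 3 control colons, 15.9% to 19.0%.

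Some families with one seed were divided between the tissues. Among 77 seeds shared by at least 2 tested entries, 8 had all members higher in blood, 32 all members higher in colon and 11 members called in both directions. Over all entries 34.6% were higher in blood and 47.1% higher in colon. Some members had no count in a tissue of the DSS mice, among them miR-540-3p, miR-6539, miR-6967-5p and miR-3473a of the 11 seeds. Their direction was set by the filter, so nothing is read from these counts against those shares. The 3 families described here belong to the 11 and were chosen after their values were seen. In the AUUGCAC family, miR-25-3p and miR-92a-3p carried the blood side, miR-363-3p was higher in blood at 1.25 ± 0.44, miR-92b-3p was near equal (-0.11 ± 0.47, and 1.04 with upper-quartile factors), and miR-32-5p was higher in colon at -4.47 ± 0.91, with counts in the blood of mouse 1 alone. Mir25 is exonic in a Mcm7 transcript and Mir32 intronic in Tmem245.

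The AGCAGCA family was divided evenly. miR-15b-5p, intronic in Smc4, measured 391, 381 and 230.1 CPM in blood against 8.47 to 12.5 CPM in colon (4.96 ± 0.40), and miR-15a-5p, intronic in the non-coding gene Dleu2, and miR-16-5p were also higher in blood, at 3.59 ± 0.54 and 1.55 ± 0.34. miR-195a-5p, miR-497a-5p and miR-322-5p were higher in colon, at -3.87 ± 0.40, -4.27 ± 0.49 and -1.39 ± 0.51. The signs of all 6 were the same under the 4 scalings, although miR-16-5p and miR-322-5p were not called under each of them. Their neighbours on the genome, Mir195a and Mir497 at chr11:70234730-70235121 and Mir15a and Mir16-1 at chr14:61631894-61632096, each had all 3 tested entries on one side, colon and blood respectively.

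In the CAGUGCA family, whose members differ by a few bases behind the seed, miR-148b-3p, intronic in Copz1, was higher in blood at 2216, 1158 and 1137 CPM against 248 to 357 CPM in colon (2.24 ± 0.30, adjusted p = 3.84e-06). miR-152-3p, intronic in Copz2, the paralog of Copz1, was higher in colon at 641 to 860.2 CPM against 11.8 to 23.1 CPM in blood (-5.69 ± 0.40, adjusted p = 2.36e-09). miR-148a-3p, outside annotated host genes, lay between them at -1.27 ± 0.28. The let-7 family was mostly on the colon side, with 7 of 9 entries higher in colon against 47.1% of all entries, let-7e-5p the most at -6.12 ± 0.37, while let-7d-5p was higher in blood at 0.70 ± 0.26 and turned to -0.19 with total counts alone. Its call was also lost with DESeq2-type factors, with DESeq2, with no filter, with miR-486 left out and without mouse 1, 7 or 8. All 3 miR-29 entries, which target collagen messages, were higher in colon, where 47.1% of all entries were, with a median of -2.10. Upper-quartile factors left 2 of them called, with a median of -0.95. Also 2 were called at 10 counts in every library, with the 6 DSS libraries alone and without mouse 7 or 9. Of 5 miR-30 entries 1 was higher in blood, 1 higher in colon and 3 were not called, beside 34.6% and 47.1% of all entries, with a median of 0.40 that turned to -0.50 with total counts alone. Upper-quartile factors gave 4 higher in blood and 0 higher in colon (median 1.55), and DESeq2-type factors gave 0 and 1.

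**Figure D3:**
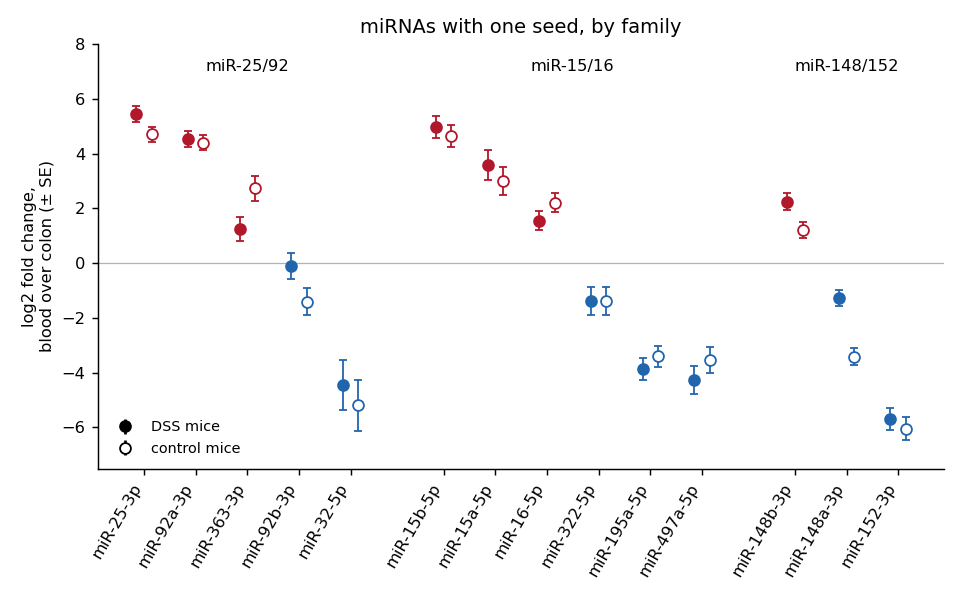
Log2 fold change of blood over colon with SE for 14 miRNAs of 3 seed families, in DSS mice (filled) and control mice (open). Each family has members on both sides of 0, such as miR-25-3p at 5.45 and miR-32-5p at -4.47 in the first and miR-148b-3p at 2.24 and miR-152-3p at -5.69 in the last.

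The arms of one hairpin mostly shared their tissue but not the size of the contrast. Of 167 hairpins with both arms tested, 121 had both arms called in the same direction and 3 in opposite directions. Over all entries 34.6% were higher in blood and 47.1% higher in colon. The 121 include hairpins whose arms had no count in DSS blood, such as miR-136 and miR-329, so that their direction was set by the filter. In the 66 hairpins with both arms at 10 CPM or more, 48 had both arms called in the same direction and 1 in opposite directions. The median difference between their arms was 1.39 log2 units. The difference exceeded 2 log2 units in 20, of which 16 exceeded it with the same sign in control mice. Among these 66 the arms of miR-296 differed most, by 6.37 log2 units, since miR-296-3p had blood at 12.7 to 16.7 CPM and colon at 8.95 to 17.1 CPM (0.34 ± 0.42). miR-142a-3p was not called (-1.06 ± 0.65, adjusted p = 0.141), whereas its 5p arm was 4.33. miR-503 was divided, with its 5p arm higher in blood (2.47 ± 0.41) and its 3p arm higher in colon (-1.80 ± 0.42).

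Of 20 entries with at least 1000 CPM in both tissues, 7 were higher in blood, 10 higher in colon and 3 not called. These counts are near the shares of all entries, 34.6% higher in blood and 47.1% higher in colon. miR-151-3p was the closest, at 981, 1397 and 994 CPM in blood and 1259, 1041 and 995 CPM in colon (0.02 ± 0.29, adjusted p = 0.951). let-7i-5p (0.50 ± 0.25) and miR-30c-5p (0.59 ± 0.27) were also not called. All 3 changed sign with total counts alone, so that near equality is tied to the scale.

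The same test was made in the control mice. There 570 entries were called (83.8%), 231 higher in blood (34.0%) and 339 higher in colon (49.9%), and 533 were called in both conditions, all in the same direction. Across the 680 entries the contrasts of DSS and control mice, from one fit and one scaling, correlated with Pearson's r = 0.969 and Spearman's rho = 0.975, given as a description since miRNAs are not independent replicates. The 680 include 64 entries without a count in DSS blood and 6 without one in DSS colon, whose fitted contrasts are not measured folds. A contrast was taken to hold where it was called in the same direction in both and the 95% interval of the difference lay within 1 log2 unit of 0. This was met by 9 entries (1.32%). The interval of the median entry reached 1.61 log2 units to either side, so most contrasts could neither be said to hold nor to change. The 9 were miR-486a-5p, miR-486b-5p, miR-92a-3p, miR-106b-3p, miR-140-3p and let-7d-5p on the blood side and let-7c-5p, miR-26a-5p and miR-100-5p on the colon side. For miR-486b-5p the contrast was 8.60 in DSS and 8.64 in control mice (difference -0.05, 95% interval -0.66 to 0.57), and for let-7c-5p it was -3.20 and -3.26 (difference 0.07, interval -0.75 to 0.88). The count depended on the setting. It was 22 with DESeq2-type factors, 31 with upper-quartile factors, 1 with total counts alone, 24 without the mouse as a block, 3 under the labels' grouping and 2 to 12 without 1 mouse. It was 12 with the SE rule used first, which was replaced after the results were seen because it is a ratio of quantities that both approach 0 for small differences. The contrast of let-7d-5p turned to -0.19 with total counts alone, and it was not called in DSS mice with DESeq2-type factors or with DESeq2.

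**Figure D4:**
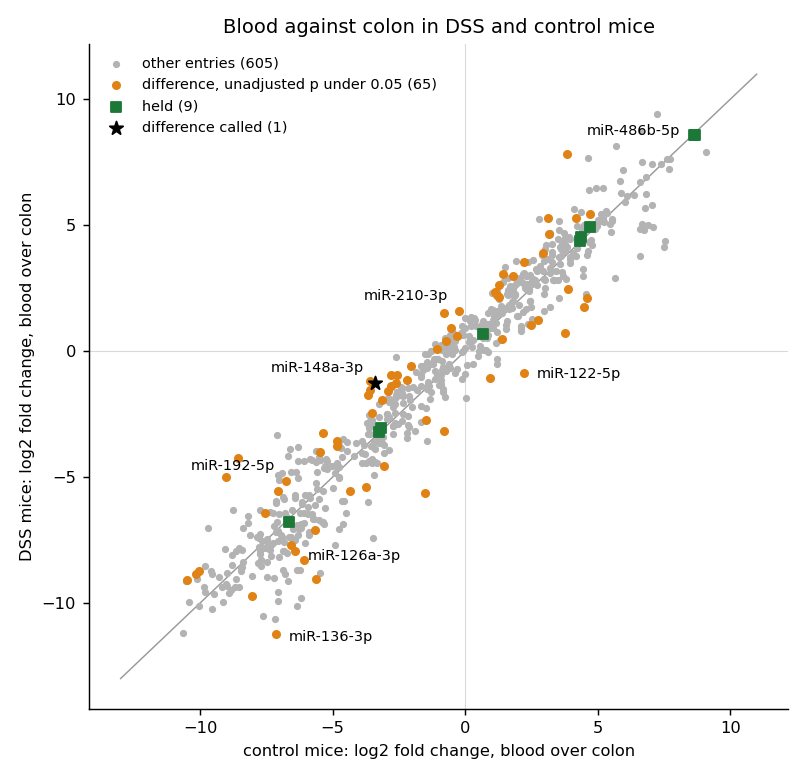
Log2 fold change of blood over colon in DSS mice (y axis) against control mice (x axis) for 680 entries, with the line of equality. The entries that held are green squares, those whose difference had an unadjusted p under 0.05 are orange, and miR-148a-3p, the called difference of 2.14, is the star.

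miR-148a-3p, abundant in liver and glandular epithelium, was the one entry with a called difference between DSS and control mice (0.147% of entries). In DSS mice it measured 8282, 3437 and 3339.9 CPM in blood and 17464, 10843 and 7114 CPM in colon, and in control mice 2716, 1857 and 4202 CPM in blood and 32369.8, 29633 and 26639 CPM in colon. All DSS colons lay below all control colons, while the blood of DSS and control mice overlapped, and within the DSS mice the blood of mouse 1 exceeded the colon of mouse 9. The contrast narrowed from -3.41 ± 0.31 to -1.27 ± 0.28, a difference of 2.14 ± 0.40 (95% interval 1.29 to 2.99, edgeR adjusted p = 0.0457). The call was narrow. It was lost with each other scaling (adjusted p = 0.151 with DESeq2-type, 0.11 with upper-quartile and 0.209 with no factors), without mouse 4, 7 or 9 (0.262, 0.055 and 0.0769), without the mouse as a block (0.142) and under the labels' grouping, where the difference was -1.14. The contrast within the DSS mice was -0.12 and not called with upper-quartile factors. The partner arm miR-148a-5p differed by 1.85 with an adjusted p of 0.222 from edgeR, and by 1.43 with an adjusted p of 0.0183 from DESeq2.

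Without adjustment, the difference had a p under 0.05 in 66 entries (9.71%), of which 40 were narrower and 26 wider in DSS mice. The colon-weighted entries among them were narrower in 31 and wider in 13 cases, and the blood-weighted ones narrower in 9 and wider in 13. None of these but miR-148a-3p passed the adjustment with edgeR. DESeq2 called 15 entries, 4 with a positive difference (miR-148a-3p, miR-148a-5p, miR-210-3p and miR-345-5p) and 11 with a negative one (let-7i-5p, miR-122-5p, miR-126a-3p, miR-132-3p, miR-132-5p, miR-146b-5p, miR-212-5p, miR-223-5p, miR-363-3p, miR-374b-5p and miR-503-5p), so that whether these pass depends on the tool. The blood to colon ratios of DSS and control mice did not overlap in 188 entries (27.6%), with the DSS mice higher in 112 (16.5%) and lower in 76 (11.2%). This balance belongs to the TMM scale, since the median difference over all entries was 0.18 with TMM factors, 0.06 with upper-quartile factors, -0.10 with total counts alone and -0.21 with DESeq2-type factors.

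The differences of the epithelial group were mostly positive, but neither edgeR nor DESeq2 called a member. On the TMM scale 12 of the 13 listed entries had a difference above 0, as had 58.7% of all entries, and in 8 the ratio was higher in all DSS than in all control mice, against 16.5% of all entries. The epithelial group held 8.89 ± 2.47% of DSS colon counts and 17.1 ± 1.69% of control colon counts, and the muscle group 34.4 ± 2.23% and 30.6 ± 3.46% (SD, n = 3 each). The part of these shares in the differences was not tested. The median contrast was -5.94 in DSS and -7.14 in control mice. miR-192-5p measured 17627 to 37672 CPM in DSS colon against 57076, 71261 and 67644 CPM in control colon, without overlap, and 591 to 868 CPM in DSS blood against 555, 567 and 669.9 CPM in control blood, with overlap. Its contrast went from -6.77 ± 0.30 to -5.15 ± 0.28 (difference 1.62, interval 0.91 to 2.33), which missed the threshold at an adjusted p of 0.0619. miR-182-5p of the miR-183 cluster measured 1277, 847 and 643 CPM in DSS colon and 2120.1, 2403 and 2449.5 CPM in control colon, with a difference of 1.50 (interval 0.61 to 2.38, adjusted p = 0.222).

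**Figure D5:**
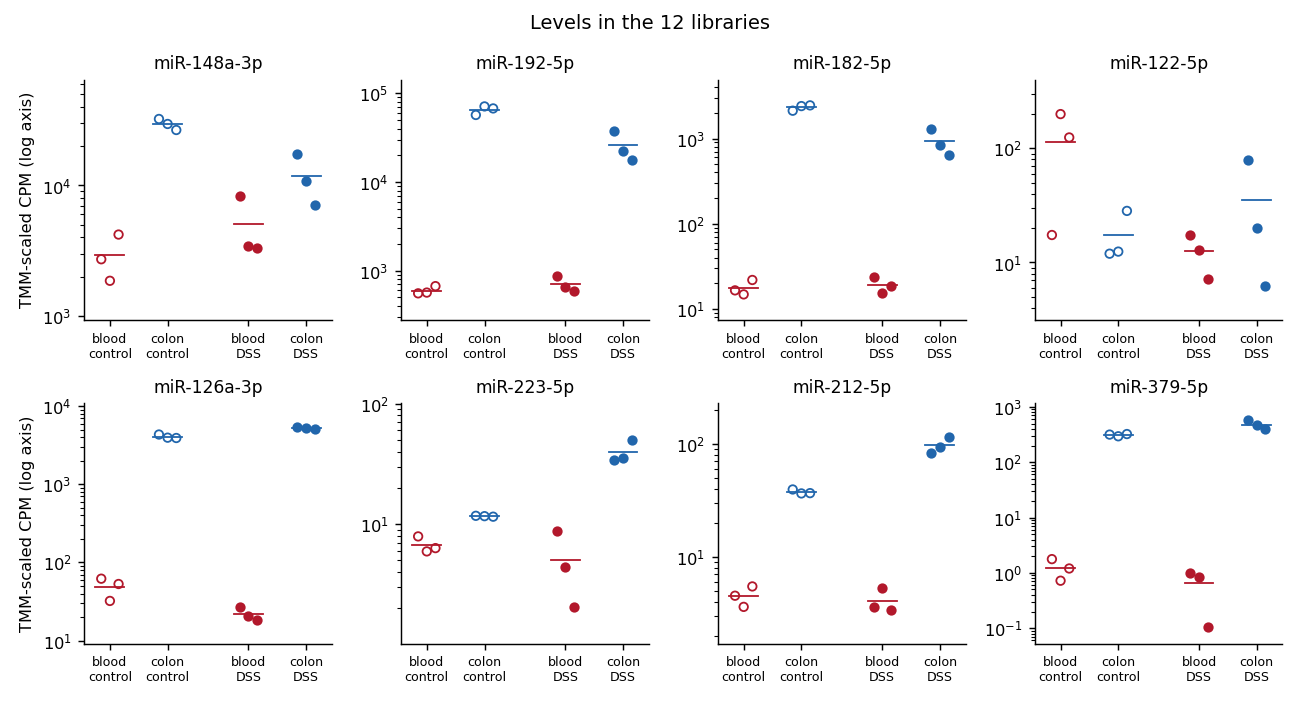
TMM-scaled CPM (log axis) of 8 miRNAs in each of the 12 libraries, with lines at the group means and filled points for DSS mice. In miR-192-5p the 3 DSS colons lie below the 3 control colons, from 57076 CPM upwards, and in miR-126a-3p the 3 DSS bloods lie below the 3 control bloods.

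All 5 entries of the miR-23/27/24 clusters also had a difference above 0, as had 58.7% of all entries, and in 4 the ratio was higher in all DSS than in all control mice, against 16.5% of all entries. miR-27a-3p measured 550.2, 259.8 and 229 CPM in DSS blood and 154, 119.6 and 217 CPM in control blood, and its contrast was -3.55 in DSS and -4.85 in control mice (difference 1.30, adjusted p = 0.372). Here the blood was higher in each DSS mouse than in each control mouse.

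miR-122-5p, the hepatocyte miRNA and the tested 1 of 2 listed liver entries, was called higher in blood in control mice and was not called in DSS mice. It measured 17.6, 12.7 and 7.22 CPM in DSS blood and 17.4, 199.6 and 125 CPM in control blood, so the blood of control mice 4 and 8 stood apart. In DSS colon it lay at 78.6, 19.9 and 6.26 CPM. The contrast was -0.86 ± 0.58 in DSS and 2.22 ± 0.62 in control mice, a difference of -3.08 (interval -4.87 to -1.30, edgeR adjusted p = 0.222, DESeq2 adjusted p = 0.0183). The part of liver RNA in these libraries was not tested.

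Among wider contrasts weighted to colon, none of which edgeR called, were those of miR-126a-3p, miR-223-5p and miR-212-5p. miR-126a-3p, the endothelial and platelet miRNA, measured 26.8, 20.6 and 18.2 CPM in DSS blood and 61.9, 32.1 and 52.9 CPM in control blood, and 5429, 5305 and 5082 CPM in DSS colon against 4342, 3957 and 3918 CPM in control colon. The DSS values lay below all controls in blood and above all controls in colon, and the contrast was -7.93 in DSS and -6.43 in control mice (difference -1.51, interval -2.34 to -0.67, edgeR adjusted p = 0.222, DESeq2 adjusted p = 0.00143). miR-223-5p differed by -2.36 (interval -3.78 to -0.94, edgeR adjusted p = 0.222, DESeq2 adjusted p = 0.00171), with 33.8 to 50.1 CPM in DSS colon and 11.5 to 11.7 CPM in control colon. miR-212-5p measured 82.3, 94.7 and 114 CPM in DSS colon and 36.4 to 39.5 CPM in control colon (difference -1.51, interval -2.64 to -0.38, edgeR adjusted p = 0.372, DESeq2 adjusted p = 0.00143).

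All 8 inflammation-linked entries had a difference below 0, where 41.3% of all entries lay, and in 4 of them the ratio was lower in all DSS than in all control mice, against 11.2% of all entries. The median contrasts were -3.68 in DSS and -2.89 in control mice for the inflammation group. In the Dlk1-Dio3 group 21 of 26 tested entries had a difference below 0 and 17 a ratio lower in all DSS mice, counts that include the 8 members without a count in DSS blood. The group held 0.413 ± 0.0368% of DSS colon counts and 0.235 ± 0.0205% of control colon counts, without overlap, and 0.00114 ± 0.000268% of DSS blood counts and 0.00138 ± 0.000731% of control blood counts, with overlap. With edgeR no member of either group passed the adjusted threshold for the difference. DESeq2 called the inflammation-linked miR-212-5p, miR-132-3p (adjusted p = 0.0154) and miR-146b-5p (0.0499), and no Dlk1-Dio3 member. The Dlk1-Dio3 miRNAs share one transcription unit and are not independent of each other, and in blood they lie close to the limit of detection.

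For miR-10b-3p, from the Hoxd cluster, the difference was -3.43 (adjusted p = 0.296), with colon at 27.6, 23.5 and 5.80 CPM in DSS mice 1, 7 and 9 and at 5.89 to 6.39 CPM in control mice. The colon of mouse 9 lay at the control level, and its library had the highest TMM factor, 1.70 against 1.14 to 1.34 in the other colons. The part of this library in the differences was not tested beyond leaving mouse 9 out.

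The blood to colon ratio, after 1 CPM was added to both levels, had one sign in all 3 DSS mice and the other in all 3 control mice in 3 entries, which were picked after their values were seen. In miR-345-5p, miR-181d-5p and miR-221-3p the ratio was above 0 in the DSS mice and below 0 in the control mice, although in miR-221-3p it was at 0 within rounding in control mouse 2. Of the 3, miR-345-5p alone was called in DSS mice, and miR-181d-5p turned to -0.47 there with total counts alone. miR-345-5p measured 11.2, 3.47 and 2.82 CPM in DSS blood and 1.23 to 2.16 CPM in DSS colon, with a contrast of 1.51 in DSS and -0.78 in control mice (difference 2.29, interval 0.97 to 3.60, edgeR adjusted p = 0.222, DESeq2 adjusted p = 0.0461).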

How the data were processed

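Small RNA was sequenced on an Illumina HiSeq 4000 from blood and colon of 6 mice, 12 libraries in all. The authors trimmed reads with Flexbar, collapsed them and assigned them to mouse miRBase entries with miRDeep2's quantifier, and deposited raw counts, the values tested here. The deposited normalized tables hold a signal, counts divided by DESeq2 size factors within a tissue, of which only names and mature sequences were used. The submitters' processing notes name GRCm38 and DESeq2. Reads that fit more than 1 mature sequence can be counted for each, so near-identical entries, such as miR-486a-5p and miR-486b-5p, are not separable.

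Counts were tested with edgeR 4.0.16 in R 4.3.3 (limma 3.58.1), after edgeR's filter on low counts by the 4 groups of tissue and condition and TMM scaling over all 12 libraries. The quasi-likelihood model had the mouse as a block, a blood effect in DSS mice and a blood effect in control mice, and the difference was the contrast of both. Adjusted p-values are Benjamini-Hochberg values over the 680 entries. The SE of a tissue contrast was derived from its F value, and that of the difference was the larger of the F-derived and the Wald SE, a rule chosen after the results were seen. The labels do not tell independent cages or batches apart, so p-values measure the spread between these mice alone. Both libraries of a number came from 1 mouse, as the titles give it. Deviations from the group means correlated within mouse from -0.46 to 0.129 over 157 miRNAs, and the block was kept because the pairing is one of animals.

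The members, the 18 lists and the tests were chosen with earlier results of these data known. Named were list members, the 5 largest contrasts in each direction at 100 CPM or more, the 10 most abundant entries of each tissue, the 5 narrower and 5 wider entries with the smallest unadjusted p, the 5 hairpins whose arms differed most with 10 CPM or more for each arm, the 5 most equal entries at 1000 CPM or more in both tissues, and, after their values were seen, seed families divided between tissues and entries whose ratio changed sign. Not every entry that the rule covers is given with its values. Genome positions are those of the mature miRNAs in RefSeq on GRCm38, where 548 tested entries had 1 locus, host genes are those of GENCODE, and clusters join hairpins at most 10000 bases apart. Alternatives were other scalings, filters, no block, DESeq2 1.42.0, robust dispersion, the 6 libraries of a condition alone, sequences or identical entries counted once, miR-486 left out, the labels' disease state and each mouse left out. The scripts were tested on simulated data. Figures were drawn with matplotlib 3.10.9.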

Additional observations from a re-analysis of the deposited data

Results flagged for a closer look

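The tissue contrast of miR-148a-3p differed between DSS and control mice by 2.14 log2 units (SE 0.40, edgeR adjusted p = 0.0457), the one difference past the threshold among 680 entries. DSS colon was lower than control colon in all 3 mice, and the blood to colon ratio was higher in 3 of 3 DSS mice than in all control mice. Over the alternatives the adjusted p ran from 0.000444 to 1. Groups of 3 mice are too small for a check of single outlying libraries.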

How the results depend on the processing

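Most calls between tissues kept their direction under the scalings, with 5 entries called higher in blood under one and higher in colon under another. The difference of miR-148a-3p kept its sign under all alternatives but the labels' disease state, and its call did not. With at least 10 counts in every library, which leaves 288 entries, 232 were called in DSS mice (120 higher and 112 lower in blood) and 228 in control mice (115 and 113). The other alternatives left both counts within 1.5 times, and leaving out 1 mouse gave 526 to 578 in DSS mice (219 to 247 higher, 300 to 336 lower) and 542 to 598 in control mice (196 to 242 higher, 323 to 356 lower).

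Differences between DSS and control mice numbered 1 in the main fit and 0 with DESeq2-type, upper-quartile or no factors, at least 10 counts, no replicate block, robust dispersion, each sequence counted once, miR-486 left out, or the labels' disease state. They numbered 5 (2 higher, 3 lower) with no filter, 15 (4 higher, 11 lower) with DESeq2, and 0 to 4 (0 to 3 higher, 0 to 2 lower) when 1 mouse was left out, with 4 without mouse 1 or mouse 2 and 0 without mouse 4, 7 or 9. The cause was not tested. Contrasts that held numbered 9, against 22 with DESeq2-type, 31 with upper-quartile and 1 with no factors, 25 at 10 counts, 24 without the replicate block, 5 with each sequence counted once, 3 under the labels' disease state and 2 to 12 without 1 mouse, with 5, 3, 2 and 3 without mice 4, 7, 8 and 9. With the F-derived SE alone, an alternative added after seeing the data, 12 held. DESeq2 gave no count of held contrasts. Without the replicate block 567 entries were called in DSS mice and 588 in control mice.

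Among the miRNAs named with values in the text, contrasts in DSS mice that changed sign were the following. With no factors they were let-7d-5p -0.19, let-7i-5p -0.39, miR-151-3p -0.87, miR-181d-5p -0.47, miR-223-3p -0.26, miR-296-3p -0.55 and miR-30c-5p -0.29. With upper-quartile factors they were miR-122-5p 0.28, miR-142a-3p 0.094, miR-148a-5p 0.21, miR-20a-5p 0.64 and miR-92b-3p 1.04. Under the labels' disease state they were miR-122-5p 0.71, miR-142a-3p 0.78, miR-151-3p -0.31, miR-181d-5p -0.40, miR-20a-5p 0.16 and miR-30c-5p -0.13. miR-151-3p also went to -0.054 with DESeq2-type factors and with DESeq2, -0.24 with no filter, -0.0080 with each sequence counted once, -0.28 with miR-486 left out and -0.18 to 0.20 without 1 mouse. miR-92b-3p went to 0.24 at 10 counts, 0.045 with the 6 libraries alone and -0.29 to 0.072 without 1 mouse, miR-223-3p to -0.092 to 1.35 without 1 mouse, and miR-206-3p to 0.19 with no replicate block. Under the labels' disease state the differences became 0.16 for miR-122-5p, 0.55 for miR-126a-3p, -1.14 for miR-148a-3p, -0.75 for miR-148a-5p, -0.80 for miR-182-5p, -0.83 for miR-192-5p, 0.34 for miR-212-5p, 1.67 for miR-223-5p, -0.18 for miR-27a-3p and -0.24 for miR-345-5p.

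With 3 mice a group the 95% interval of the median entry's difference reached 1.61 log2 units to either side, narrower for abundant entries, and a change within an entry's own interval was not detectable. The counts of DSS blood outside miR-486 limit entries scarce in blood, whose contrasts are uncertain in size. The sources disagree on which mice had colitis, and 21 entries had an unadjusted p under 0.05 for the difference under the labels' disease state against 66 under the grouping used.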
